A study of Mus musculus with 8 samples.

Results

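The mevalonate enzymes up to farnesyl pyrophosphate are 8 genes, Acat2, Hmgcs1, Mvk, Pmvk, Mvd, Idi1, Fdps and Ggps1, chosen by name from the 46078 genes of a liver RNA-seq count table. Their levels were compared between 5 control (WT) and 3 knockout (Rbfox2 KO) mouse livers, which addresses how transcripts of this pathway differ when Rbfox2, a splicing regulator, is lost from the liver on a lipogenic diet. Both groups carried loxP sites in both copies of Rbfox2 (Rbfox2 LoxP/LoxP). Only the Rbfox2 KO mice also carried Cre recombinase under the albumin promoter (Alb-cre), which acts in hepatocytes, so other liver cells kept the gene. All 8 mice drank water with 30% (w/v) fructose for 22 weeks, which began in young adulthood, and livers were taken after fasting. The study used male mice unless stated otherwise, and the sex and age of each mouse are not in its label. Each sample is 1 liver.

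Cells build cholesterol and all other isoprenoids from acetyl-CoA through mevalonate. Acat2 (cytosolic acetoacetyl-CoA thiolase) joins 2 acetyl-CoA molecules, and Hmgcs1 (HMG-CoA synthase) adds the next to give HMG-CoA, from which mevalonate is made. Mvk and Pmvk add phosphates to mevalonate, Mvd (mevalonate diphosphate decarboxylase) turns the product into isopentenyl pyrophosphate, and Idi1 interconverts the isomers of this unit. Fdps joins such units into farnesyl pyrophosphate, the branch point to sterols, dolichol, ubiquinone and farnesylated proteins. Ggps1 lies one step beyond it, since it extends farnesyl pyrophosphate to geranylgeranyl pyrophosphate. In liver these genes are classical targets of the SREBP transcription factors, which are kept inactive in the endoplasmic reticulum by INSIG proteins when sterols are plentiful.

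The promoters of 6 of these genes are shown because their transcripts span the widest and the narrowest differences between genotypes. Each is 300 bases, from 250 before to 50 after the start, from RefSeq on GRCm38.p6, and capitals mark matches on either strand to TCACNCCAC, a form of the sterol regulatory element, or to CCAAT, the box bound by NF-Y (read as ATTGG on the other strand).
Hmgcs1: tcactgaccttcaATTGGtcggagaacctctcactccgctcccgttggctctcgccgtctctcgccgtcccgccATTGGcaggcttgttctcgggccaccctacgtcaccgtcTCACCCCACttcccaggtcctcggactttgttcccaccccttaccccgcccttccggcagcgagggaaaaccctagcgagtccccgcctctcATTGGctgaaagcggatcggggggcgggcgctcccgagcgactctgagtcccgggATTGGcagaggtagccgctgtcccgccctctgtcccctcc
Mvd: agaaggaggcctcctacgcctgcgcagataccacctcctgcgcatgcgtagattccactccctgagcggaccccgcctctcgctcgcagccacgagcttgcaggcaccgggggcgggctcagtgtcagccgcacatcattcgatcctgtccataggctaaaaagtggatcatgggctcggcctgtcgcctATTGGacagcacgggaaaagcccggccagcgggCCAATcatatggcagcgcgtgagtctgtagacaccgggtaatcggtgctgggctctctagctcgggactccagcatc
Idi1: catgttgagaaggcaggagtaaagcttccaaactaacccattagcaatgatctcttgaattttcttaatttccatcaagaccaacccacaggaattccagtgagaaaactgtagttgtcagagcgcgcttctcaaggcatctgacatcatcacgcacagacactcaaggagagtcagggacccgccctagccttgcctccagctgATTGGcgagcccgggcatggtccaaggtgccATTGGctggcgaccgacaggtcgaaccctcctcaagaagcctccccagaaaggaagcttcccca
Mvk: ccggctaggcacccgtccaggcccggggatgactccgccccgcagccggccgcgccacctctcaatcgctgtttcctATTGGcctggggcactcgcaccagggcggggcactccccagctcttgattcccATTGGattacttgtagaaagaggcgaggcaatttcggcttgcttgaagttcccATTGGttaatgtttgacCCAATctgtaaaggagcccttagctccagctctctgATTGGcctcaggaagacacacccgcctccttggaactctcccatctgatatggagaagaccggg
Ggps1: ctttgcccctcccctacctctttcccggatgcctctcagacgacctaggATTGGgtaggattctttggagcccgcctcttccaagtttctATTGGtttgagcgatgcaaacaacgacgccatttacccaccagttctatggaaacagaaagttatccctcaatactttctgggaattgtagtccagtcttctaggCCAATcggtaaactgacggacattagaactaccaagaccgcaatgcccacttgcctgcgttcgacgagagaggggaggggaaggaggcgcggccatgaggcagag
Acat2: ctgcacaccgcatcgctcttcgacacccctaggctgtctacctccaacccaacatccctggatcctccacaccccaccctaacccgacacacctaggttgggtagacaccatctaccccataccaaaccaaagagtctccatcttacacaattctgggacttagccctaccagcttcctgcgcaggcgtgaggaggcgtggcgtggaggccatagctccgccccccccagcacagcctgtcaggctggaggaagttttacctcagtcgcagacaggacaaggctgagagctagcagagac

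The windows lie at chr13:119690101-119690400 (plus strand) for Hmgcs1, chr8:122443373-122443672 (minus) for Mvd, chr13:8885356-8885655 (plus) for Idi1, chr5:114444019-114444318 (plus) for Mvk, chr13:14063439-14063738 (minus) for Ggps1 and chr17:12960676-12960975 (minus) for Acat2. The promoter table held 7 of the 8 genes, and Fdps was not among them. TCACNCCAC was found only in the Hmgcs1 window among these 7 genes, at position -137 from the start, and 1.24% of all 32817 promoters in the table held it. CCAAT was found 5 times in the Mvk window, 4 times in that of Hmgcs1, 3 times in that of Ggps1, 2 times each in those of Mvd and Idi1 and 0 times in that of Acat2. Of all promoters, 37.4% held at least 1 CCAAT. The first of the 2 Pmvk promoters held 1 CCAAT and the second 0. GGGCGG, a GC box and the third motif searched, was in 35.6% of all promoters and in those of Acat2, Hmgcs1, Mvk, Mvd and Idi1. These matches of letters do not show binding. All 8 are protein-coding genes of GRCm38 (GENCODE M21). Hmgcs1 spans 119690379 to 119708260, Idi1 8885501 to 8892451 and Ggps1 14050659 to 14063488 of chromosome 13. Fdps spans 89093588 to 89101959 and Pmvk 89454541 to 89469013 of chromosome 3. Mvk lies at 114444269 to 114460591 of chromosome 5, Mvd at 122433601 to 122443422 of chromosome 8 and Acat2 at 12942890 to 12960747 of chromosome 17. Fdps lies on the minus strand and Pmvk on the plus strand.

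Total counts ran from 24829693 to 37823155 per sample, and values below are CPM, read counts scaled to the size of the library, with TMM factors (from a trimmed mean of log ratios between libraries) of 0.821 to 1.287. Rbfox2, the deleted gene, was at 13.96, 20.5, 19.04, 17.9 and 23.2 CPM over WT livers 1 to 5 and at 6.84, 8.61 and 12.4 CPM over Rbfox2 KO livers 1 to 3, so the groups did not overlap and went the way of the labels. Counts over the whole gene do not resolve the deleted stretch. The 8 hepatocyte markers, such as Alb and Apoa1, summed to 74029 to 81664 CPM in WT and to 66788 to 81540 CPM in Rbfox2 KO. Rbfox2 KO 1 stood apart, with 428 CPM from 10 genes of exocrine pancreas against 10.05 CPM for WT 1 and at most 0.266 CPM in the others. None of these 10 reached 3 counts in every sample. Muscle markers summed to 191 CPM in Rbfox2 KO 1, 221 in WT 4 and 315 in WT 5, while the other 5 samples held 1.10 to 39.6 CPM, and 3 of 7 reached 3 counts throughout. In bulk liver, fewer cells of a type and less RNA per cell cannot be told apart.

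All 8 mevalonate transcripts had lower mean levels in Rbfox2 KO than in WT livers, from 35.2% of WT for Mvd to 87.8% for Acat2. The means were near or below 60% of WT for Mvd, Fdps, Idi1, Hmgcs1 and Mvk, and above it for Pmvk, Ggps1 and Acat2. Every Rbfox2 KO liver was below every WT liver for Hmgcs1, Mvk, Pmvk, Mvd and Fdps, 5 of 8, where the same held for 1.82% of the 14654 genes tested. None of the 8 passed an adjusted p of 0.05 by edgeR's quasi-likelihood test, and neither did any other gene tested (0%). At an unadjusted edgeR p under 0.05 there were 6 of 8, all lower, against 2.33% of all genes tested that were lower at that p. The DESeq2 Wald test gave adjusted p under 0.05 for 4 of 8, Hmgcs1, Mvd, Idi1 and Fdps, against 0.253% of 14615 genes that were lower with such a p. The median log2 fold change of the 8 genes was -0.82, and that of all genes tested was 0.00095.

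**Figure D1:**
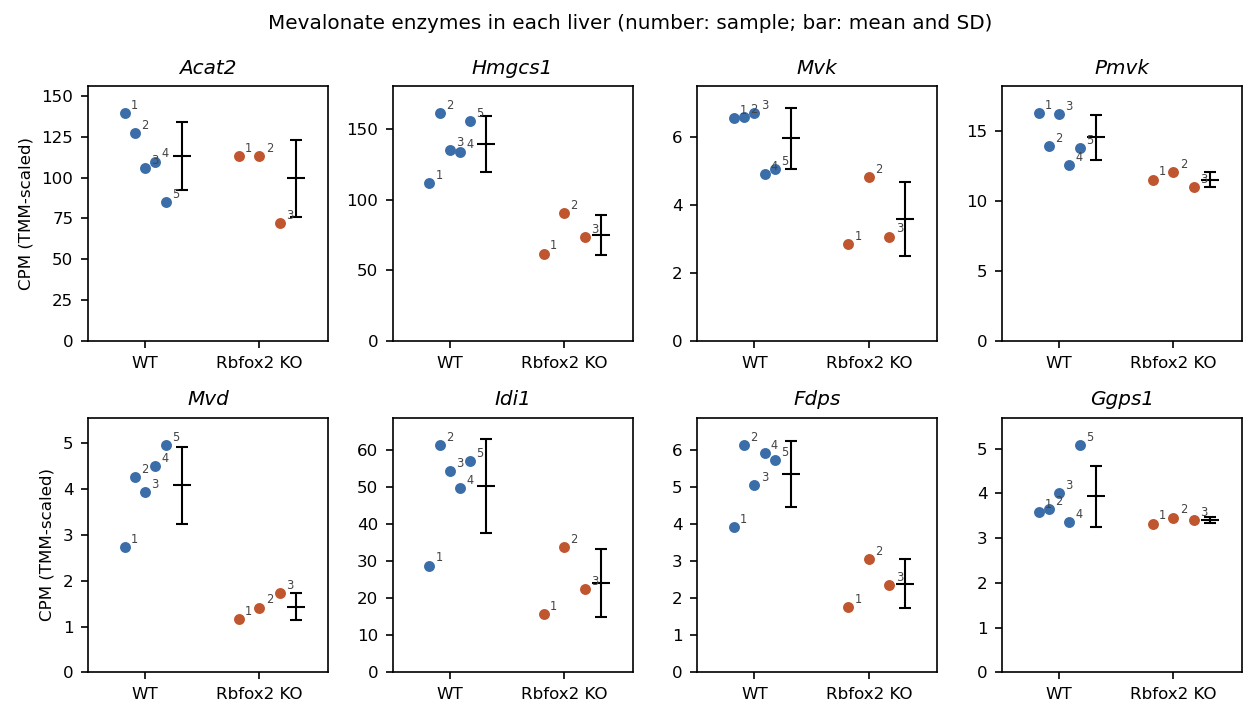
TMM-scaled CPM (y axis, linear from 0, with its own scale in each panel) of the 8 mevalonate genes in WT (blue) and Rbfox2 KO (orange) livers. Points are single livers with their sample number, and bars give the mean and SD. The groups are apart for Hmgcs1, Mvk, Pmvk, Mvd and Fdps and overlap for Acat2, Idi1 and Ggps1.

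At the first step, Acat2 differed little between genotypes. It had 139, 127, 106, 110 and 85.1 CPM over WT livers 1 to 5 and 113, 113 and 72.2 CPM over Rbfox2 KO livers 1 to 3. The groups overlapped widely, and the lowest sample, Rbfox2 KO 3, was the only one below WT 5. The means were 113 ± 20.8 CPM for WT (SD, n = 5) and 99.6 ± 23.7 CPM for Rbfox2 KO (SD, n = 3). The fitted difference was -0.19 ± 0.19 log2 units (SE; edgeR unadjusted p = 0.340), and over 18 alternatives in processing it ran from -0.34 to -0.0026. Its count is uncertain, since 45.9% of the 50-base words of its longest transcript also occur in Acat3, its neighbour on chromosome 17. The proteins of both genes, as read from the longest open frames, agreed at 388 of 397 positions (97.7%).

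Hmgcs1 had the closest resemblance to the average course of the 8 genes. Its levels were 112, 161, 135, 133 and 155 CPM over WT livers 1 to 5 and 61.7, 90.2 and 73.2 CPM over Rbfox2 KO livers 1 to 3. The highest Rbfox2 KO liver lay below the lowest WT liver, which was WT 1. The means were 139 ± 19.7 CPM for WT (SD, n = 5) and 75.0 ± 14.3 CPM for Rbfox2 KO (SD, n = 3), a log2 fold change of -0.89 ± 0.16 (SE; edgeR adjusted p = 0.254, DESeq2 adjusted p = 5.3e-05). Counts of Hmgcs1 were never under 1968, so counting error was small beside the spread between mice. An antisense transcript, Gm48342, shares 13.6% of the words of its longest transcript and is not in the count table.

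The kinases had fold changes nearer to 0 than that of the decarboxylase that follows them, a gap that was not tested. Mvk had 6.57, 6.59, 6.71, 4.93 and 5.06 CPM over WT livers 1 to 5 and 2.86, 4.84 and 3.08 CPM over Rbfox2 KO livers 1 to 3. Its groups were apart by a narrow margin, since Rbfox2 KO 2 came close to WT 4 and WT 5. The fitted log2 fold change was -0.74 ± 0.21 (SE; edgeR adjusted p = 0.729).

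Pmvk, the second kinase, had 16.2, 13.9, 16.2, 12.6 and 13.7 CPM over WT livers 1 to 5 and 11.5, 12.03 and 10.96 CPM over Rbfox2 KO livers 1 to 3. The Rbfox2 KO livers lay close together just under the lowest WT liver, WT 4. Its fitted log2 fold change was -0.34 ± 0.11 (SE; edgeR adjusted p = 0.882). With scaling by library totals alone the groups of Pmvk overlapped, at up to 14.8 CPM in Rbfox2 KO against 12.1 CPM and above in WT.

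Mvd had the largest relative difference of the 8 genes. It had 2.73, 4.27, 3.94, 4.51 and 4.97 CPM over WT livers 1 to 5 and 1.16, 1.42 and 1.73 CPM over Rbfox2 KO livers 1 to 3. All Rbfox2 KO livers were well under WT 1, the lowest WT liver. The means were 4.08 ± 0.843 CPM for WT (SD, n = 5) and 1.44 ± 0.287 CPM for Rbfox2 KO (SD, n = 3), and the two-sided exact permutation p for the difference was 0.0179, the smallest that 56 divisions of the samples allow. Hmgcs1 and Fdps had the same permutation p, and the other genes had 0.0357 to 0.429. For Mvd it was 0.0571 when WT 2, 3, 4 or 5 was left out. On the log2 scale the fold change was -1.50 ± 0.23 (SE; edgeR adjusted p = 0.138, DESeq2 adjusted p = 1.2e-05). Only 0.430% of genes tested had a lower log2 fold change. Mvd is sparsely counted, with 36 counts in Rbfox2 KO 2, for which the exact 95% Poisson interval is 25.2 to 49.8 counts. With no filter on low counts edgeR gave Mvd an adjusted p of 0.0411, the only such value among the 8 genes by edgeR in any alternative run.

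Idi1 varied more between WT livers than any other of the 8 genes, with a coefficient of variation of 25.3%. It had 28.8, 61.4, 54.4, 49.6 and 57.0 CPM over WT livers 1 to 5 and 15.8, 33.9 and 22.5 CPM over Rbfox2 KO livers 1 to 3. WT 1 was below Rbfox2 KO 2, so the groups overlapped through this one WT liver. Idi1 had a fitted log2 fold change of -1.07 ± 0.29 (SE; edgeR adjusted p = 0.786, DESeq2 adjusted p = 0.0283). Of its longest transcript, 30.5% of words occur in other genes, of which Gm13502, a pseudogene, had 36 to 171 counts against 503 to 1929 for Idi1.

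Fdps, which makes farnesyl pyrophosphate, had 3.91, 6.14, 5.06, 5.91 and 5.74 CPM over WT livers 1 to 5 and 1.76, 3.07 and 2.35 CPM over Rbfox2 KO livers 1 to 3. The groups did not overlap, and WT 1 was again the lowest WT liver. The means were 5.35 ± 0.898 CPM for WT (SD, n = 5) and 2.39 ± 0.656 CPM for Rbfox2 KO (SD, n = 3), a log2 fold change of -1.17 ± 0.22 (SE; edgeR adjusted p = 0.289, DESeq2 adjusted p = 0.00041). A larger share of its sequence occurs in other genes than for any of the other 7. On the same strand Gm43738 covers 26.7% of its exon bases and holds 77.3% of the words of its longest transcript, and with pseudogenes such as Gm3571 86.4% of these words occur elsewhere. Gm43738 had 0 counts in every sample and Gm3571 had 22 to 92, against 56 to 194 for Fdps. How reads common to these genes were assigned was not tested.

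Ggps1, the geranylgeranyl pyrophosphate synthase, had 3.58, 3.65, 4.01, 3.36 and 5.09 CPM over WT livers 1 to 5 and 3.33, 3.46 and 3.41 CPM over Rbfox2 KO livers 1 to 3. The Rbfox2 KO livers sat at the lower edge of the WT range, and WT 5 stood above the rest. Between genotypes it differed by -0.21 ± 0.16 log2 units (SE; edgeR unadjusted p = 0.221), from -0.27 to -0.10 over 17 alternatives. Of its exon bases, 5.44% overlap Arid4b on the other strand.

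Levels can be ordered per length, as mean CPM per kilobase of annotated exon. In WT, with all annotated exons as the length, the order was Acat2 at 44.6 ± 8.18, Hmgcs1 at 30.3 ± 4.28, Idi1 at 14.3 ± 3.63, Pmvk at 8.49 ± 0.946, Mvk at 2.23 ± 0.335, Mvd at 2.20 ± 0.453, Fdps at 1.27 ± 0.214 and Ggps1 at 0.834 ± 0.145 CPM per kilobase (SD, n = 5). The ranges over WT livers overlapped between Acat2 and Hmgcs1, Idi1 and Pmvk, Mvk and Mvd, and Fdps and Ggps1, and were apart between the other neighbours. Acat2 and Hmgcs1, whose ranges overlapped in WT, were apart in Rbfox2 KO at 39.1 ± 9.31 and 16.3 ± 3.11 CPM per kilobase (SD, n = 3). The order of the lower genes depends on the length used, since the longest transcript of Fdps has 1382 bases against 4208 in all its exons. Per kilobase of the longest transcript, a choice made after seeing the data, Fdps was at 3.87 ± 0.650 in WT (SD, n = 5), above Mvk at 3.60 ± 0.541 and Mvd at 2.32 ± 0.480, with ranges that overlapped between Fdps and Mvk. On either length Ggps1 was the lowest of the 8 in WT, and Acat2 and Hmgcs1 were the highest. In Rbfox2 KO the lowest place changed with the length. Over all exons Fdps was at 0.568 ± 0.156 and Ggps1 at 0.720 ± 0.0145 CPM per kilobase, with ranges that overlapped, whereas over the longest transcript Fdps was at 1.73 ± 0.475 and Ggps1 at 0.801 ± 0.0161 (SD, n = 3). Over the longest transcript Pmvk, at 9.63 ± 0.448, also stood above Idi1, at 7.95 ± 3.02, in Rbfox2 KO, with ranges that overlapped. The levels of Acat2, Idi1 and Fdps are also subject to the sequence they share with other genes.

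The samples did not rank alike for all 8 genes. Among WT livers, WT 1 was the lowest for Hmgcs1, Mvd, Idi1 and Fdps, yet the highest for Acat2 and Pmvk, and WT 4 was the lowest for Mvk, Pmvk and Ggps1. Among Rbfox2 KO livers, Rbfox2 KO 1 was the lowest for 6 genes and Rbfox2 KO 2 the highest for 7, with Mvd as the exception. The mean over the 8 genes of log2 CPM, each centred on its own mean, was 0.095, 0.42, 0.33, 0.24 and 0.35 over WT livers 1 to 5 and -0.67, -0.22 and -0.53 over Rbfox2 KO livers 1 to 3. Every Rbfox2 KO liver was thus below every WT liver in this average, with Rbfox2 KO 1, which held pancreas transcripts, farthest down. Without Rbfox2 KO 1 the median log2 fold change of the 8 genes was -0.69. In that edgeR fit 6 of the 8 had an unadjusted p under 0.05, against 570 of 14867 genes in either direction. By DESeq2 Hmgcs1, Mvd and Fdps had an adjusted p under 0.05, among 43 genes with such a p, 30 of them lower. DESeq2 left 1742 of the 14867 adjusted p-values missing there. Over all fits that left out 1 sample, DESeq2 gave an adjusted p under 0.05 to 3 to 5 of the 8 genes and to 32 to 107 of all genes. Hmgcs1, Mvd and Fdps were always included. Idi1 was included only without WT 1 or Rbfox2 KO 2, and Mvk only without Rbfox2 KO 2.

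**Figure D2:**
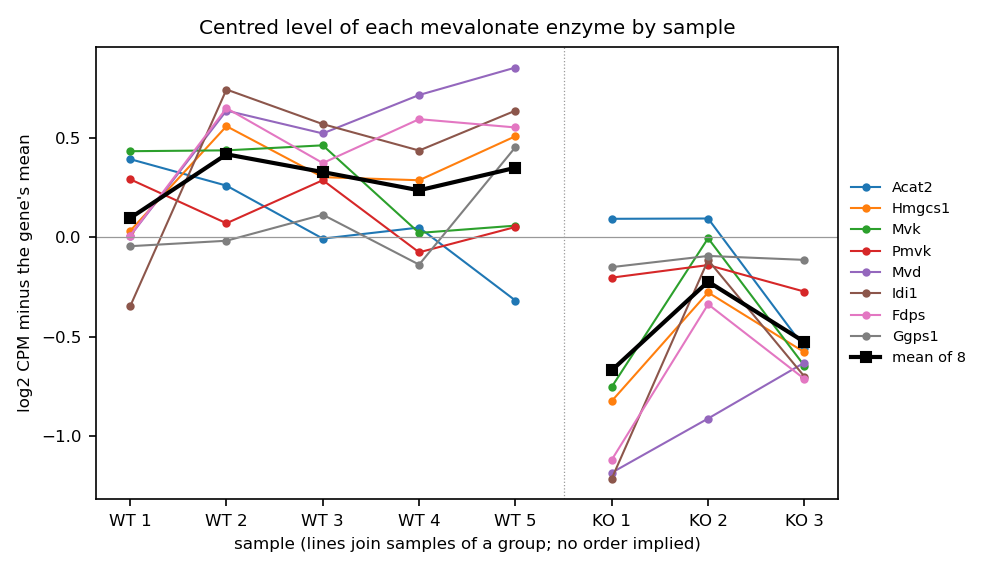
Log2 CPM of each mevalonate gene minus its mean over the 8 samples (y axis) by sample (x axis), with 1 coloured line per gene and a black line for their mean. Lines join samples of a group and imply no order. The black line is at 0.095 or above in WT and at -0.22 or below in Rbfox2 KO, and the lines of Acat2, Pmvk and Ggps1 change least between groups.

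Ratios within a sample tested whether related enzymes differed in their difference between genotypes, with p-values adjusted over 3 ratios, of which 2 are reported. Fdps and Ggps1 are both prenyltransferases, and their proteins were identical at 29.0% of 279 aligned positions. The log2 ratio of Fdps to Ggps1 CPM was 0.13, 0.75, 0.34, 0.82 and 0.17 over WT livers 1 to 5 and -0.92, -0.17 and -0.54 over Rbfox2 KO livers 1 to 3. All Rbfox2 KO livers had a lower ratio than all WT livers. The ratio is not scaled by length, so its sign has no meaning of its own, and it carries the uncertainty of the Fdps count. The difference was -0.99 (exact permutation p = 0.0179, adjusted p = 0.0268 over 3 ratios). The pair was chosen with earlier results of these data known, so these p-values describe the separation and are no independent test of it.

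Acat2 was also set against Acat1, the mitochondrial thiolase, with which its protein is identical at 43.6% of 392 aligned positions. The log2 ratio of Acat2 to Acat1 was -1.91, -1.86, -2.34, -2.07 and -2.55 over WT livers 1 to 5 and -1.85, -2.24 and -2.61 over Rbfox2 KO livers 1 to 3. This gave a difference of -0.09 (exact permutation p = 0.75, adjusted p = 0.75), and the groups overlapped over nearly their whole ranges. For Fdps against Ggps1 the adjusted p rose to between 0.0714 and 0.143 when any 1 sample other than WT 1 was left out, with differences from -1.17 to -0.80, by exact permutation over fewer divisions. Fewer divisions raise the smallest p that can be reached, so part of this rise follows from the number of samples alone.

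**Figure D3:**
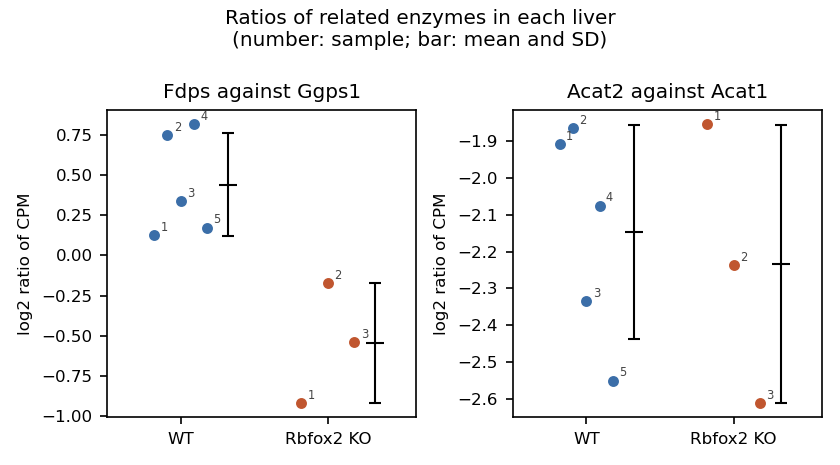
Log2 ratio of CPM within each liver (y axis) for Fdps against Ggps1 and Acat2 against Acat1, in WT (blue) and Rbfox2 KO (orange). Points are single livers with their sample number, and bars give the mean and SD. The ratio of Fdps to Ggps1 is apart between groups, by -0.99 on average, and that of Acat2 to Acat1 overlaps.

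Along the pathway, genes on either side of the 8 were compared as lists, with counts beside the 6 of 8 for the mevalonate genes at an unadjusted edgeR p under 0.05. Of all 14654 genes tested 341 were lower and 353 higher at that p. Of 3 genes that supply acetyl-CoA, 1 was lower at that p, Acss2 (acetyl-CoA synthetase, -0.31 ± 0.12 SE), and 0 were higher. For Acly (ATP citrate lyase) the fold change was 0.21 ± 0.10 and for Slc25a1 (the mitochondrial citrate carrier) 0.07 ± 0.09 on the log2 scale (SE). Of the paralogs Acat1 and Acat3 neither passed, with log2 fold changes of -0.10 and -0.08, and Idi2 had 0 counts in all 8 samples.

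The sterol branch, from squalene synthesis to cholesterol, had 12 of 12 genes lower, 9 of them at an unadjusted edgeR p under 0.05, with a median log2 fold change of -0.47. Of all 14654 genes tested 7292 were lower, and 2.33% were lower at that p. The smallest p belonged to Nsdhl (-0.93 ± 0.20 SE), Sqle (squalene epoxidase, -1.65 ± 0.41 SE) and Msmo1 (-1.15 ± 0.32 SE), which have roles in the oxidation and demethylation of the sterol skeleton or its precursor. DESeq2 gave adjusted p under 0.05 to these 3, against 0.253% of all genes that were lower with such a p. Sqle had 9.38 to 22.0 CPM in WT and 2.45 to 8.53 CPM in Rbfox2 KO, with WT 1 and Rbfox2 KO 2 as the closest livers. The groups did not overlap for these 3 and for Sc5d, a gene named after its values were seen. Every Rbfox2 KO liver was below every WT liver for 1.82% of all genes tested.

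The other users of farnesyl or geranylgeranyl pyrophosphate and of isopentenyl units, such as prenyltransferase subunits, dolichol and ubiquinone enzymes, showed no common direction. Of 19 genes 10 were lower and 9 higher, 1 in each direction at an unadjusted edgeR p under 0.05, with a median log2 fold change of -0.036. These were Trit1, which modifies transfer RNA (-0.37 ± 0.15 SE), and Dolk, the dolichol kinase (0.24 ± 0.11 SE). Among all 14654 genes tested 341 were lower and 353 higher at that p. Pdss1, a subunit of the enzyme that makes the ubiquinone side chain, had a log2 fold change of -0.51 ± 0.27 (SE) at a mean of 1.34 CPM in WT.

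Of 7 genes of SREBP control 5 were lower, 1 at an unadjusted edgeR p under 0.05. This was Srebf1, the SREBP gene tied mainly to fatty acid synthesis, with 31.3 to 49.5 CPM in WT and 24.1 to 30.8 CPM in Rbfox2 KO (-0.50 ± 0.15 SE, edgeR adjusted p = 0.809). Among all genes tested 2.33% were lower at that unadjusted p. Srebf2, tied mainly to sterol synthesis, had a log2 fold change of -0.41 ± 0.24 (SE) with overlapping groups. Insig1, itself a target of SREBP, had 54.3, 104, 104, 108 and 124 CPM over WT livers 1 to 5 and 30.2, 78.5 and 85.8 CPM over Rbfox2 KO livers 1 to 3, so WT 1 lay within the range of Rbfox2 KO. Levels of mRNA do not show how much SREBP was processed.

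**Figure D4:**
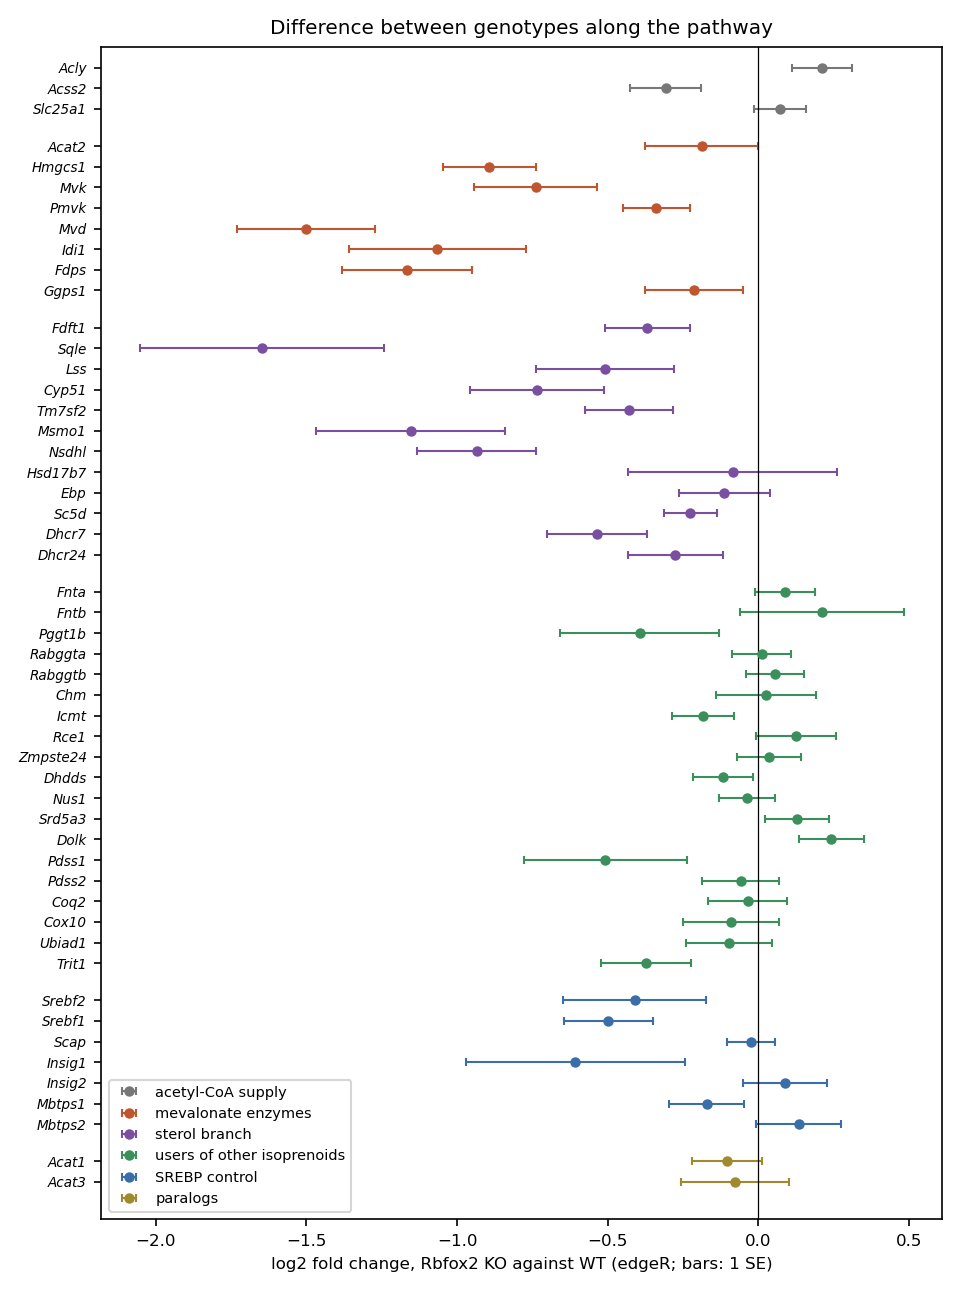
Log2 fold change of Rbfox2 KO against WT by edgeR (x axis, bars 1 SE) for the mevalonate genes and the lists around them, 1 gene per row, coloured by list. The 8 mevalonate and 12 sterol branch genes are all left of 0, with medians of -0.82 and -0.47, and the 19 users of other isoprenoids lie on both sides, with a median of -0.036.

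Lists of feeding state and time of day were measured beside the mevalonate genes, since liver sterol synthesis is known to follow both. All 9 fasting response genes had higher means in Rbfox2 KO, 1 of them at an unadjusted edgeR p under 0.05, Fgf21 (0.73 ± 0.25 SE). Among all 14654 genes tested 7362 were higher, 353 of them at that p. The 9 genes summed to 7371 to 8399 CPM in WT and to 5622, 10619 and 12047 CPM over Rbfox2 KO livers 1 to 3. This sum rests mainly on Cyp4a14, Cyp4a10 and Pck1, with means of 3285, 1949 and 1838 CPM in WT. Rbfox2 KO 1 was the lowest liver for Cyp4a14, Cyp4a10, Acot1 and Angptl4. It was the highest for Fgf21 (24.3 CPM) and Cpt1a (399 CPM), and in between for Pdk4, Ppargc1a and Pck1. Genes of this list beyond Fgf21 were named after their values were seen. Of 12 clock genes none passed that p in either direction, with summed levels that overlapped for the 5 of the night phase (40.0 to 70.8 CPM in WT, 45.3 to 58.0 CPM in Rbfox2 KO) and the 7 of the day phase (203 to 286 and 214 to 306 CPM). Kupffer cell markers summed to 177 to 202 CPM in WT and 190 to 253 CPM in Rbfox2 KO, stellate cell markers to 145 to 195 and 136 to 227 CPM, and sinusoidal endothelial markers to 138 to 158 and 136 to 156 CPM, with 6 of 6 genes in each list at 3 counts or more in all samples. Cholangiocyte markers (4 of 4) summed to 2.57 to 3.88 and 3.11 to 5.58 CPM, and lymphocyte markers (5 of 6) to 2.18 to 10.8 and 2.16 to 3.29 CPM. The part of these lists in the difference of the mevalonate genes was not tested.

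The genes most like the mevalonate genes were taken as those with the smallest root-mean-square distance, over the 8 samples, between their centred log2 CPM and the mean centred course of the 8 genes. The median distance of all 14654 genes was 0.45. Hmgcs1 itself was the nearest of all at 0.10, with Mvk at rank 31, Fdps at 110, Pmvk at 253, Idi1 at 694, Ggps1 at 828, Mvd at 4253 and Acat2 at 4877. Mvd had a larger difference than the average course, and Acat2 a smaller one and a different order of samples. The average includes each of the 8 genes, which brings their own distances down. The 10 nearest genes outside the 8 were A930004J17Rik, C330013E15Rik, Mmab, Gsta3, Syt1, Cyb5b, Gm14121, Dio1, Dnhd1 and Gm13021, at distances of 0.12 to 0.17 and edgeR log2 fold changes of -0.85 to -0.49. Gsta3, a glutathione transferase, was the most abundant, at 936 ± 45.2 CPM for WT (SD, n = 5) and 635 ± 73.9 CPM for Rbfox2 KO (SD, n = 3). All 10 were matched to a course that is lower in Rbfox2 KO, so their lower levels there follow from the choice.

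Mmab, which encodes a cobalamin adenosyltransferase, is the neighbour of Mvk on chromosome 5, from 114431034 to 114444060 on the minus strand. Its annotated start lies 209 bases from that of Mvk and inside the Mvk window printed above. It had 8.72, 11.2, 8.43, 9.02 and 8.84 CPM over WT livers 1 to 5 and 4.20, 7.51 and 5.51 CPM over Rbfox2 KO livers 1 to 3, a course that it was chosen for, since the average it was matched to includes Mvk. The log2 fold change was -0.69 ± 0.18 (SE; edgeR adjusted p = 0.636), beside -0.74 ± 0.21 for Mvk.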

How the data were processed

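The table the authors deposited gives raw counts of reads for each Ensembl gene. The authors made poly(A)-selected libraries (paired end), aligned reads to GRCm38 with TopHat2 2.0.11 as fr-firststrand and counted them per gene with featureCounts. The strand setting of the counting and the handling of multiply aligned reads are not given in the sources used here. The authors named DESeq2 or edgeR-voom-limma for differential expression.

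Groups came from the sample labels. Symbols, positions and exon lengths came from GENCODE M21, which named 45229 of 46078 genes. Genes were filtered with filterByExpr (14654 left), scaled by TMM and compared between genotypes, with no other term, by edgeR 4.0.16 (R 4.3.3; glmQLFit, robust, and glmQLFTest). P-values were adjusted over all genes by Benjamini-Hochberg, with a threshold of 0.05. DESeq2 1.42.0 and limma-voom (limma 3.58.1) were alternatives. DESeq2 left 39 adjusted p-values missing, and these count as not tested. SE was the log2 fold change divided by the root of F. Single values were compared by two-sided exact permutation over 56 divisions. A floor of 3 counts equals 0.0839 to 0.118 CPM. Intervals and floors cover counting error only. The edgeR procedure was tested on simulated counts. It found 81 of 100 genes changed by 2 log2 units and 67 of 98 changed by 1 log2 unit. Of its 151 calls 3 were unchanged genes.

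A gene of the lists, and the ratio that rests on it, is not reported here. The 8 genes, lists and tests were chosen with earlier results of these data known. The genes named were the 8, Rbfox2, the 3 of each pathway list with the smallest edgeR p and any past the adjusted threshold, and the 10 of most similar course. Samples of a group differed by more than sampling noise (chi-square per degree of freedom 45.5 to 346). The p-values set the difference between genotypes against the spread between these samples. The labels number mice without naming litters or batches, so any that differed between genotypes could not be told apart from genotype.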

Additional observations from a re-analysis of the deposited data

Results flagged for a closer look

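The values of WT 1 were set apart 2 times from the other WT samples, by a gap to the nearest sample over the whole range above the critical value of 0.71, among 65 values so examined, where chance alone gives 3.25. Insig1 was one, at 54.3 CPM in WT 1 against 104 to 124 CPM in the others, a gap of 0.713 of the range. The sum of the exocrine pancreas genes was the other, at 10.05 CPM against at most 0.266 CPM, with 0.983.

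The 10 exocrine pancreas genes were all outside the genes tested. They summed to 428.3 CPM in Rbfox2 KO 1, above every WT sample, and to at most 0.197 CPM in the other Rbfox2 KO livers. Their part in the levels of the mevalonate genes was not tested. Without that liver all 8 of these genes kept a lower mean in Rbfox2 KO, with a median log2 fold change of -0.69.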

How the results depend on the processing

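All 8 mevalonate genes kept their direction under every alternative run. Genes past the threshold numbered 0 by edgeR (694 at an unadjusted p under 0.05), 59 with the DESeq2 Wald test, 6 with no filter on low counts and 1 at an adjusted p under 0.1. The count of mevalonate genes became 4 with DESeq2 and 1 with no filter, which was Mvd. It stayed at 0 with the other scalings, the stricter filter, limma-voom and the non-robust fit. A mean count of at least 100 left 7 of the 8 genes to be tested. Scaling by library totals moved the median log2 fold change of all genes to 0.12 and that of the 8 to -0.73. DESeq2 also passed Rbfox2, at -1.03. With 1 sample left out, by edgeR or DESeq2, the ranges were 0 to 107 genes called, 0 to 5 mevalonate genes called and -1.03 to -0.69 for their median. DESeq2 alone gave 32 genes without Rbfox2 KO 3 and 107 without Rbfox2 KO 2. The repeat of DESeq2 without each sample, and the CPM under other scalings and with samples left out, were chosen after seeing the data. The ratio of Fdps to Ggps1 ran from -1.17 to -0.80 and that of Acat2 to Acat1 from -0.28 to 0.10, where it reversed without Rbfox2 KO 3 (0.101). Adding Acat3 to Acat2 also reversed it (0.0092). Neither value was near a threshold, and the cause was not tested. With the sample number as a replicate block edgeR called 0 genes, and the median of the 8 was -0.89. In that fit 7 of the 8 had an unadjusted p under 0.05, against 739 of all 14654 genes in either direction. Within the 3 shared numbers the ratio of Fdps to Ggps1 differed by -0.95 (exact permutation p = 0.25, the smallest these pairs allow). Same-numbered samples deviated together with correlations of 0.048 to 0.17, and 0 of 3 Rbfox2 KO samples correlated best with their own number. No pairing by number was thus seen, but 3 shared numbers are too few to exclude one.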

Other observations

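Within the Rbfox2 KO livers the order of the Rbfox2 counts and that of the mevalonate genes differed. These counts cover the whole gene and all liver cells, so they do not measure intact Rbfox2 left in hepatocytes. Rbfox2 had 6.84, 8.61 and 12.4 CPM over Rbfox2 KO livers 1 to 3, while the mean centred log2 CPM of the 8 genes was -0.67, -0.22 and -0.53. Among WT livers, WT 1 was the lowest in both, at 13.96 CPM and 0.095. With 3 and 5 livers no relation was computed.

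Sterol branch genes were at varied distances from the average course of the mevalonate genes. Nsdhl was at rank 19, Cyp51 at 21 and Fdft1, the gene of squalene synthase, at 35 of the 14654 genes, whereas Sqle was at rank 12691 with a log2 fold change of -1.65 and Hsd17b7 at 9964 with one of -0.09. Sqle had a larger difference than the average course in the same direction, and Hsd17b7 a smaller one. Genes beyond Sqle and Nsdhl were named here after their values were seen.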
